A study of Mus musculus with 2 samples.

Results

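The Akr1c family of aldo-keto reductases was examined in the adrenal gland of young female mice. It comprised 9 genes, Akr1c6, Akr1c12, Akr1c13, Akr1c14, Akr1c18, Akr1c19, Akr1c20, Akr1c21 and Akr1cl, of 55536 annotated genes. They are listed by gene symbol. Total RNA had been sequenced from adrenal glands of 25-day-old females of the hybrid strain B6CASTF1/J, a cross of B6 and CAST. The 2 libraries make up 1 group and are called replicate 1 and replicate 2 after the labels. The samples used here hold no treatment, further genotype or other age, so no comparison between conditions exists and levels are described. The labels give 2 numbered animals in the tissue descriptions but the same donor entry and library description for both, so an SD may reflect technical spread.

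Aldo-keto reductases of this family use NADPH or NADH to interconvert keto and hydroxyl groups on steroids, prostaglandins and other carbonyl compounds. Akr1c18 is 20-alpha-hydroxysteroid dehydrogenase, which turns progesterone into a progestin that binds the progesterone receptor poorly. In the mouse adrenal gland it is a marker of the X-zone, a transient inner layer of the cortex that borders the medulla, descends from the fetal cortex, and is lost at puberty in males and in the first pregnancy in females. Akr1c6 is a hepatic 17-beta-hydroxysteroid dehydrogenase, Akr1c14 a 3-alpha-hydroxysteroid dehydrogenase, and Akr1c21 a renal 3-alpha/17-alpha-hydroxysteroid dehydrogenase.

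In the GENCODE M21 annotation (mm10) 8 members formed a cluster on chromosome 13, from 4049011 to 4586541, a span of 537.5 kb. Akr1cl was not in it: it lay on chromosome 1, from 65012689 to 65032759, on the minus strand. In the cluster 5 members were on the plus strand and 3 on the minus strand. Akr1c18 (4132615 to 4150654, minus strand) lay between Akr1c14 (4049011 to 4090688) and Akr1c13 (4191150 to 4205596). Next came Akr1c19 (4228700 to 4252843), Akr1c12 (4268176 to 4279433, minus strand), Akr1c6 (4434306 to 4457877), Akr1c20 (4486849 to 4523345, minus strand) and Akr1c21 (4574075 to 4586541). The longest coding sequence of each of these 8 genes had 972 bases, or 323 codons before the stop, and that of Akr1cl had 969 bases. Coding sequences of cluster members were 71.1% to 96.2% identical over 28 pairs, with a median of 74.0%. Akr1cl was 72.9% to 77.6% identical to them and was closest to Akr1c18. The closest pairs were Akr1c13 with Akr1c12 (96.2%) and Akr1c6 with Akr1c20 (92.3%).

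**Figure D1:**
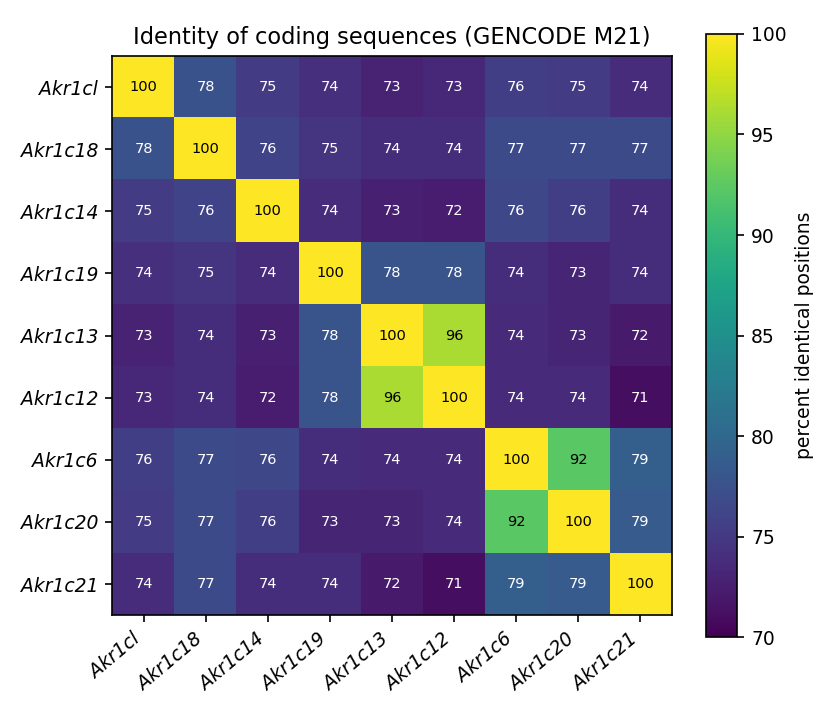
Percent of identical positions in global alignments of the longest coding sequences (GENCODE M21), with both axes listing the 9 members and colour giving the percent. Akr1c13 with Akr1c12 (96.2%) and Akr1c6 with Akr1c20 (92.3%) stand out, while Akr1cl and Akr1c18 share 77.6%.

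The first 60 coding bases are printed for Akr1c18 and Akr1cl, the most abundant members, and for Akr1c13 and Akr1c12, the most alike. They run 5′ to 3′ from the start codon, and capitals mark bases with no identical partner in the alignment to Akr1c18. All 4 stretches lie in 1 exon (mm10): chr13:4150539-4150598 (minus) for Akr1c18, chr1:65030589-65030648 (minus) for Akr1cl, chr13:4191227-4191286 (plus) for Akr1c13 and chr13:4279297-4279356 (minus) for Akr1c12.
Akr1c18: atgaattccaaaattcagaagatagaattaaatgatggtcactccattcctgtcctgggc
Akr1cl: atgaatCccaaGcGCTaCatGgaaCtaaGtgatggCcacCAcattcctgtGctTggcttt
Akr1c13: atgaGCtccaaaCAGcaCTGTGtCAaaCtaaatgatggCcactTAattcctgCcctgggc
Akr1c12: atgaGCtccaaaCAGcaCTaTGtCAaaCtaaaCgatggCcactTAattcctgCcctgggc
Akr1cl had 14 such bases, and Akr1c13 and Akr1c12 had 17 each. Between Akr1c13 and Akr1c12 only 2 of the 60 bases differed.

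Reads can be shared between such copies, which limits what the counts can resolve. Of all 50-base stretches of the Akr1c13 reference transcript, 28.6% also occurred in a transcript of Akr1c12, and the converse share was 28.6%. For Akr1c18 and Akr1cl the shares were 0.608% and 0.409%, each with the other. For Akr1c6 and Akr1c20 they were 2.08% and 2.17%, again with each other. Akr1c14 shared 5.90% with the pseudogene Gm18857, which overlaps it. The long transcript of Akr1c19 shared 4.19% with the pseudogene Marcksl1-ps4, which overlaps it, and part of this also occurred in Marcksl1. Akr1c21 shared none. The levels of Akr1c18 and Akr1cl are thus set almost wholly by stretches that no other gene holds.

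Expected counts, the authors' estimates of reads per gene, summed to 19366343 in replicate 1 and 33728646 in replicate 2. Nuclear protein-coding genes held 39.1% and 66.1% of them, so these genes were read less deeply in replicate 1. Levels are TPM, a share of all transcripts after division by length that sums to 1000000, and non-coding RNA enters the total. Nuclear coding genes summed to 215711 TPM in replicate 1 and 338327 TPM in replicate 2. A ratio below is the log2 of TMM-scaled expected counts in replicate 2 relative to replicate 1. Its median was 0.03 over all genes averaging 100 counts or more. Scaled by total counts, spike-in totals or coding totals, that median was 0.91, 0.16 or 0.15, so directions are relative to it. The 95% intervals of ratios are exact (Clopper-Pearson), cover counting error only and compare these libraries only. Over 14789 nuclear coding genes the libraries differed by more than sampling noise (chi-square divided by its degrees of freedom, 121.2). The 6 cortical markers were all above 1 TPM, with Nr5a1, a transcription factor of steroid-making cells, at 134.8 and 259.5 TPM. So were the 6 markers of chromaffin cells of the medulla, against 51.5% of nuclear protein-coding genes. The 5 fat markers were above 1 TPM as well, led by Fabp4 at 393.4 and 521.6 TPM. All 5 were lower in replicate 2, with ratios from -0.91 to -0.27. Their part in the levels given below was not tested.

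Expression within the family was concentrated on Akr1c18. Its level was 1477 TPM in the first library and 2682 in the other, or 2080 ± 852 TPM (SD, n = 2), from 26065 and 92181 counts. The second transcript table gave 1647 and 4040 TPM. Among 22015 nuclear protein-coding genes it ranked 6 in replicate 1 and 3 in replicate 2. Replicate 2 was the higher in TPM. Within the sum of nuclear coding genes alone, rescaled to the same total as TPM, it was at 6849 and 7927, a narrower gap. Akr1c18 made up 83.2% and 76.6% of the summed TPM of the 9 members. In bulk tissue, fewer cells of a type and less RNA per cell cannot be told apart.

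Akr1cl, an Akr1c-like gene, was next. Its levels were 287.1 and 805.8 TPM in replicates 1 and 2, or 546 ± 367 TPM (SD, n = 2), from 7102 and 38986 counts. The second transcript table gave Akr1cl 354.9 and 1358 TPM (857 ± 709, SD, n = 2), and replicate 2 was the higher in both tables. It ranked 53 and 16 among nuclear coding genes and gave 16.2% and 23.0% of the family sum. Together Akr1c18 and Akr1cl held 99.4% and 99.6% of it. Akr1c18 exceeded Akr1cl by 5.15 times in replicate 1 and 3.33 times in replicate 2, so the order was the same in both libraries while the distance differed.

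**Figure D2:**
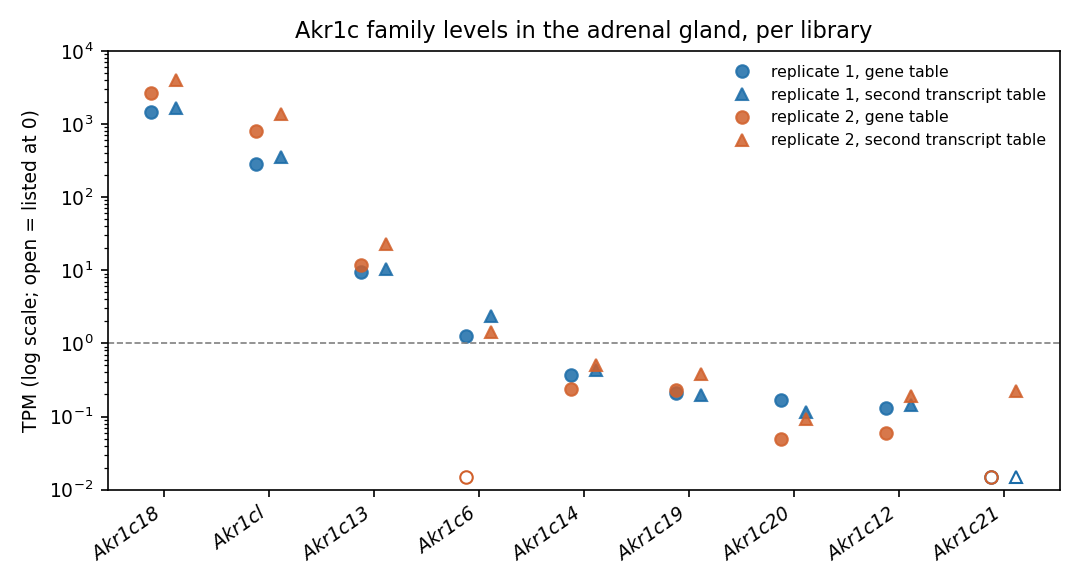
TPM of each member on a log scale, with circles for the gene table, triangles for the second transcript table summed per gene, blue for replicate 1 and orange for replicate 2; open symbols at the bottom are listed at 0 and the dashed line is 1 TPM. Akr1c18 and Akr1cl lie between 287.1 and 4040 TPM in every table, and Akr1c13 between 9.34 and 22.8 TPM.

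The other 7 members summed to 11.5 TPM in replicate 1 and 12.5 TPM in replicate 2. Akr1c13 accounted for most of that, at 9.34 and 11.9 TPM (10.6 ± 1.80, SD, n = 2), from 136.6 and 412.7 counts. Akr1cl exceeded it by 30.7 and 67.8 times. Thus 3 of 9 members reached 1 TPM in both libraries, against 51.5% of nuclear protein-coding genes and 22.4% of all annotated genes, and 5 of 9 were below 1 TPM in both. Akr1c6 was at 1.27 TPM in replicate 1 and listed at 0 in replicate 2.

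The 5 members below 1 TPM were close to the limit of detection. Akr1c14 was at 0.37 and 0.24 TPM, from 15 and 19 counts. Akr1c19 was at 0.21 and 0.23 TPM, from 6.13 and 10 counts. Akr1c20 was at 0.17 and 0.05 TPM, from 2 counts in each library. Akr1c12 was at 0.13 and 0.06 TPM, from 2.39 and 2.33 counts. Akr1c21 had 0 counts in both gene tables, for which the floor of 3 counts is 0.190 TPM in replicate 1 and 0.0989 TPM in replicate 2. The second transcript table listed it at 0 in replicate 1 and at 0.224 TPM in replicate 2, above that floor, from 5.0 counts on a nonsense-mediated decay transcript. The order among Akr1c14, Akr1c19, Akr1c20 and Akr1c12 was not resolved, since their 95% Poisson intervals in TPM overlapped. In replicate 1 they ran from 0.207 to 0.610 for Akr1c14 and from 0.0754 to 0.447 for Akr1c19. Kidney markers, given here because Akr1c21 is a renal enzyme, were all below 1 TPM (8 of 8) and summed to 0.22 and 0.29 TPM. Of these 8, 6 in replicate 1 and 5 in replicate 2 were at 0.

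**Figure D3:**
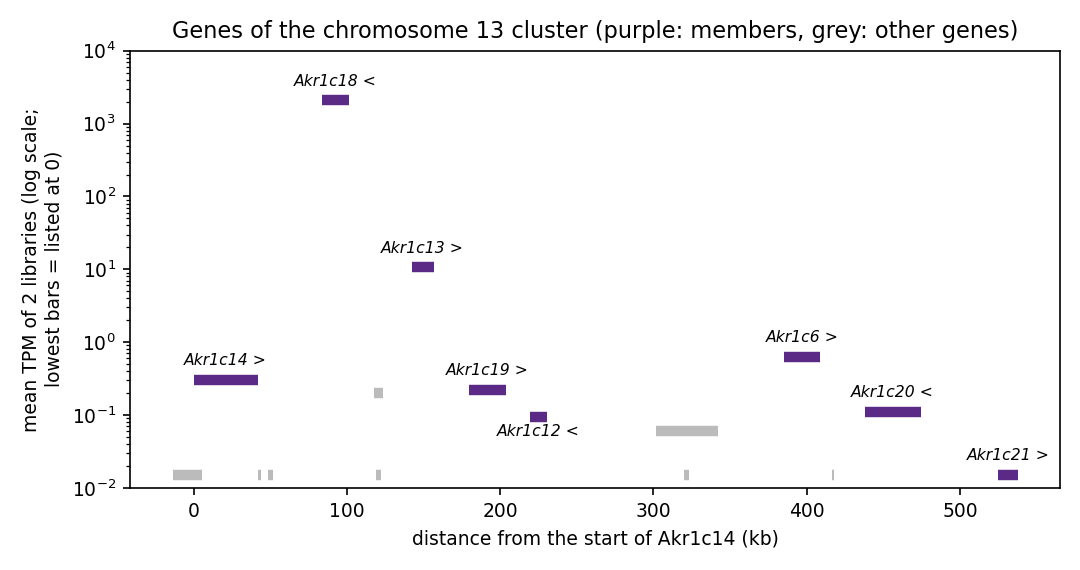
Mean TPM of 2 libraries (log scale) for every annotated gene of the chromosome 13 cluster, drawn as bars from gene start to gene end against the distance from the start of Akr1c14 in kb; arrows beside names give the strand. Akr1c18 at 2080 TPM and Akr1c13 at 10.6 TPM stand above the other members, all below 1 TPM on average, and no grey bar of a non-member reaches 1 TPM.

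The cluster region held 9 other annotated genes. They were pseudogenes, non-coding RNAs or, for Gm47905, of a type not yet settled, and none was annotated as protein-coding. None reached 1 TPM or more than 3 counts in the gene table of either library. For scale, 22.4% of all annotated genes and 51.5% of nuclear protein-coding genes reached 1 TPM in both libraries. The share among pseudogenes and non-coding RNAs alone was not computed, so these low levels are not read as a trait of the region. By the second transcript table, 4 of the 9 passed 1 TPM in replicate 2: Gm47925 (2.18 TPM), Gm47951 (1.86), Gm47905 (1.41) and Gm47904 (1.01). In that library Akr1c18 was at 4040 TPM in the same table. The tables disagreed on some of these genes. Gm47951 had 43.0 and 145.8 counts and Gm47905 had 22.9 and 97.9 in the second transcript table, against 0 in both gene tables.

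Akr1c13 and Akr1c12 differed widely in level in spite of their likeness. Akr1c13 had 136.6 counts in replicate 1 against 2.39 for Akr1c12, and 412.7 against 2.33 in replicate 2. The posterior SD that the authors deposited for these counts was 0.77 in replicate 1 and 0.71 in replicate 2 for both genes, far below the gap. The second transcript table gave 133.8 against 2.25 counts and 406.9 against 4.07. Both tables thus placed nearly all reads on Akr1c13, in both libraries.

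The upstream sequence of that pair is printed because it too is nearly identical while the levels are far apart. RefSeq promoter entries (GRCm38.p6) were matched for 8 of 9 members, all but Akr1c20. The windows are the 250 bases before the RefSeq start, which differs from the M21 start for most members. Inside the M21 gene lie 37 bases of the Akr1c13 and Akr1c6 windows, 34 of the Akr1c12 window, 8 of the Akr1c18 window, and all 250 of the Akr1c14 and Akr1c19 windows. The windows were 92.5% identical between Akr1c13 (chr13:4190937-4191186, plus) and Akr1c12 (chr13:4279400-4279649, minus), and 57.5% at most for any other pair. Capitals mark the 15 bases of each that have no identical partner in the alignment of the pair.
Akr1c13: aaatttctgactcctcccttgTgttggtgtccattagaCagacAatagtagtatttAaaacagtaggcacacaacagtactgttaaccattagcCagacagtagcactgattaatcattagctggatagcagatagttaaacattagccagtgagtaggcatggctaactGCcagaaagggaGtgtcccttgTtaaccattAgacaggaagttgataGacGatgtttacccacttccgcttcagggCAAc
Akr1c12: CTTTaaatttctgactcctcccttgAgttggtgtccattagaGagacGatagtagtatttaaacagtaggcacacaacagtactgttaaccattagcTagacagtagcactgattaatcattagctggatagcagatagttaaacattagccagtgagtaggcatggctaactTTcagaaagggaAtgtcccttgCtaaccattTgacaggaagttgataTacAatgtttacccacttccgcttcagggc
Most of both stretches is in lower case, that is, matched base by base between the copies.

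The same kind of window is shown for the abundant members Akr1c18 (chr13:4150647-4150896, minus) and Akr1cl (chr1:65032760-65033009, minus), with motif matches in capitals. Letters were searched on both strands for AGGTCA, a core motif of nuclear receptors, AAGGTCA, which contains it and is bound by Nr5a1, CCAAT and TATAAA.
Akr1c18: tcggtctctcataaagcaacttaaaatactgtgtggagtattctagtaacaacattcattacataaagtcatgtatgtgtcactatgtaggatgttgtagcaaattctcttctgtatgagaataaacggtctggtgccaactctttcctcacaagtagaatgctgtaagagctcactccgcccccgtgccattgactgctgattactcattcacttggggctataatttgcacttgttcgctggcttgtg
Akr1cl: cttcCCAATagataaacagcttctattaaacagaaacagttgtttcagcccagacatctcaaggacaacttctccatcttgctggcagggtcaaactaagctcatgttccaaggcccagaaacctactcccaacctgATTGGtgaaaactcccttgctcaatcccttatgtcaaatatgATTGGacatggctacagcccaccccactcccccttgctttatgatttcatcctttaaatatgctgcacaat
Akr1cl held CCAAT 3 times, and Akr1c18 held none of the motifs. CCAAT was found in 4 of the 8 members (Akr1c6, Akr1c14, Akr1c19 and Akr1cl), against 33.9% of 32851 promoters. TATAAA was found in Akr1c6 alone, against 12.4%. AGGTCA and AAGGTCA were in none of the 8, against 14.0% and 4.08%. A match is a description of letters, and its absence here concerns this window only.

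The libraries were then compared for each member. A mean count of at least 100 was reached by 3 of 9 members, Akr1c18, Akr1cl and Akr1c13. Of these 3, 0 were 2-fold or more apart, against 1.32% of 11542 genes (0.39% higher and 0.927% lower in replicate 2). The counting interval excluded equality for 2 of the 3, both higher in replicate 2, against 42.0% of all genes (22.8% higher, 19.2% lower). Akr1c18 had a log2 ratio of 0.14 (95% interval 0.12 to 0.16), so it was slightly higher in replicate 2, and 1.02 when scaled by total counts. Akr1c14, at 15 and 19 counts, was below that minimum and had a ratio of -1.27 (-2.40 to -0.26), or -0.43 on total counts with equality inside its interval. Akr1c19 had a ratio of -0.87 (-2.55 to 0.80). Akr1c13 had a ratio of -0.09 (-0.37 to 0.20), and its interval included equality, and its sign turned on total counts (0.79), spike-in totals (0.041) and coding totals (0.036). Akr1cl had a ratio of 0.77 (0.74 to 0.81), or 1.66 on total counts, and 1.23% of all genes had a ratio as high or higher. On the log2 scale Akr1cl was 0.63 further up than Akr1c18, a difference that no scaling of the libraries alters, and it was 0.68 in the second transcript table. With 2 libraries of 1 group this difference has no replicate check.

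**Figure D4:**
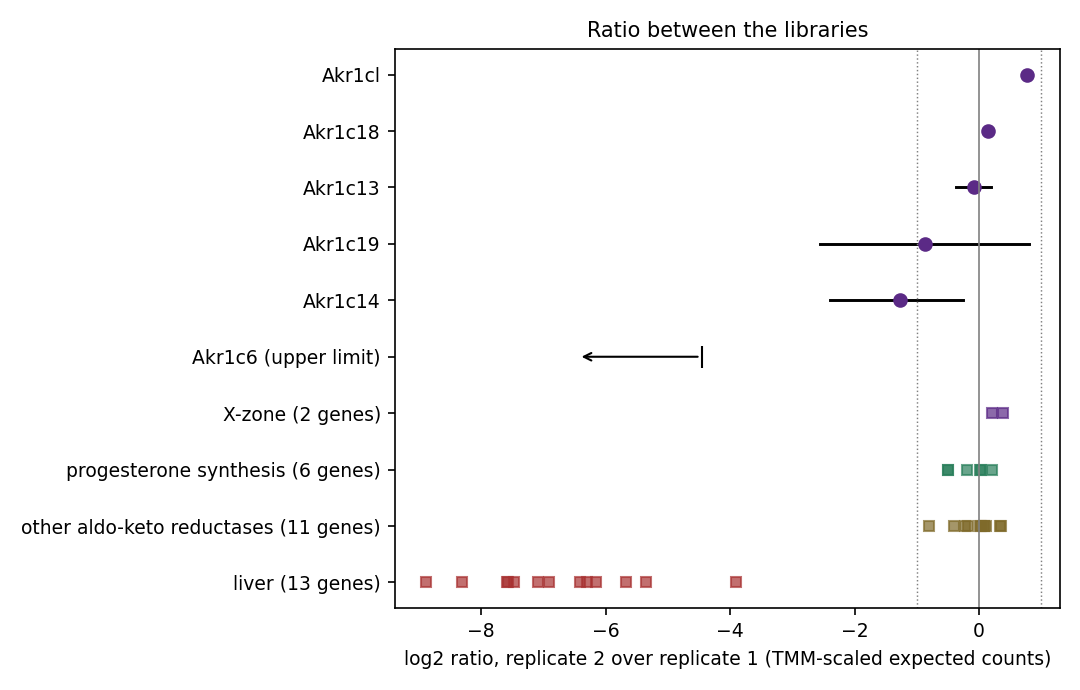
Log2 ratio of replicate 2 over replicate 1 from TMM-scaled expected counts, with members as circles and 95% counting intervals as lines, Akr1c6 as an upper limit with an arrow, and genes of 4 lists as squares; dotted lines mark 2-fold. Akr1cl lies at 0.77 and Akr1c18 at 0.14, whereas the 13 liver genes lie between -8.89 and -3.90.

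Akr1c6 was the member with the widest gap. It had 27 counts in replicate 1 and 0 in replicate 2. Set against a floor of 3 counts in replicate 2, the scaled gap was 28.9-fold. Counting error on both sides lowers this. For these TMM-scaled counts, the counting interval puts Akr1c6 in replicate 1 at least 21.9-fold above its level in replicate 2. On total counts its log2 ratio was -5.2 in place of -5.6. The second transcript table listed 28.0 and 9.88 counts, which is 8.80-fold, and placed it above 1 TPM in both libraries (2.34 and 1.45). There the reads of replicate 2 lay on short transcripts, and the full-length coding transcript Akr1c6-201 was listed at 0. Liver markers moved with it: all 13 of the list, including Alb, Apoa1 and Ttr, were lower in replicate 2, and their TPM summed to 247.3 and 5.41. Their part in the Akr1c6 count was not tested. The 6 ovary markers, given because Akr1c18 is also known from the corpus luteum, were all below 1 TPM and summed to 0.35 and 0.38 TPM. Amh had the most counts, 5 and 13, and Fshr and Cyp19a1 were at 0 in both gene tables. In the second transcript table Cyp19a1 was at 0.090 and 0.068 TPM.

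Both annotated transcripts of Akr1c18 are protein-coding. Akr1c18-201 held 75.4% of its TPM in replicate 1 and 91.8% in replicate 2 in the first transcript table, and 92.6% and 93.4% in the second. The share in replicate 1 thus differed between the tables. Akr1cl has 6 annotated transcripts, of which Akr1cl-201 led with 73.7% and 78.0% in the first table and 72.0% and 75.4% in the second. The 2 retained-intron transcripts of Akr1cl held 12.9% and 9.90% in the first table and 14.1% and 11.4% in the second, lower in replicate 2 in both. Its nonsense-mediated decay transcript held 3.04% and 2.62% in the first table but 8.76% and 9.55% in the second.

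For Akr1c13 the split depended on the table. The coding transcript Akr1c13-201 held 60.5% and 82.2% in the first table and 50.8% and 52.8% in the second. The nonsense-mediated decay transcript held 17.1% and 17.8% in the first and 49.2% and 47.2% in the second. The short processed transcript was given 22.4% in replicate 1 of the first table and 0 elsewhere, from 7.15 counts. The gene's total count was close in both tables, at 136.6 and 133.8 in replicate 1.

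**Figure D5:**
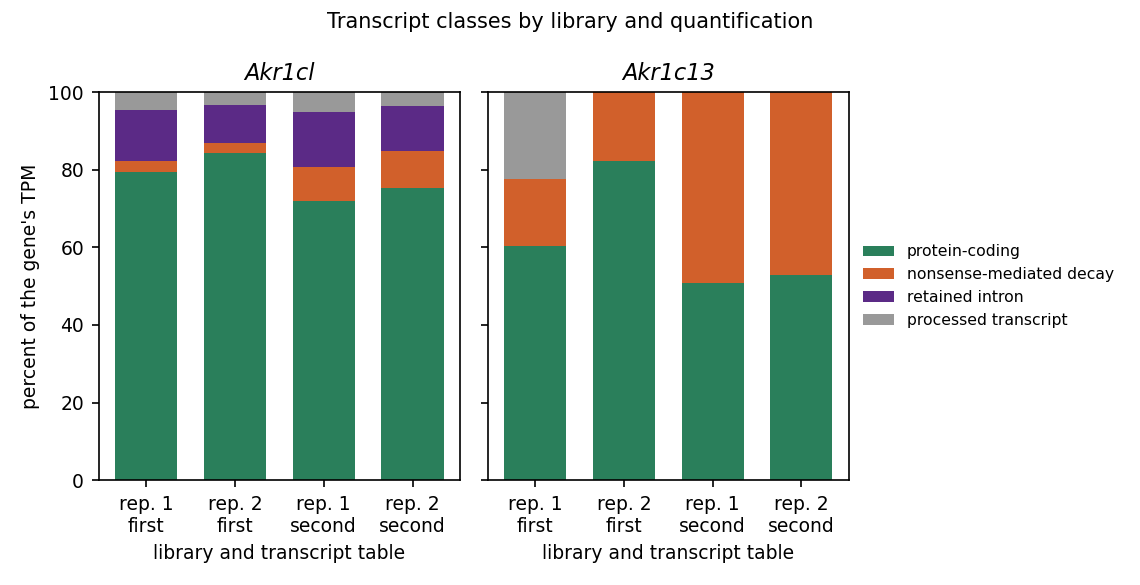
Percent of the TPM of Akr1cl and Akr1c13 on each transcript class (stacked bars), by library and transcript table. Protein-coding transcripts held 72.0% to 84.2% of Akr1cl, while for Akr1c13 the nonsense-mediated decay share was 17.1% and 17.8% in the first table and 49.2% and 47.2% in the second.

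Other X-zone markers were present beside Akr1c18. Pik3c2g, a class II phosphoinositide 3-kinase, was at 33.3 and 61.7 TPM. Thrb, a thyroid hormone receptor, was at 16.2 and 41.2 TPM. Akr1c18 exceeded Pik3c2g by 44.4 and 43.5 times, a close match between the libraries, and Thrb by 91.1 and 65.1 times. In the second transcript table these values were 40.9 and 38.9 for Pik3c2g and 54.3 and 47.1 for Thrb. All 3 genes had ratios above 0, namely 0.14 for Akr1c18, 0.20 for Pik3c2g and 0.39 for Thrb. The ratio of Akr1cl was above that of all 3. Ratios like that of Pik3c2g were not particular to X-zone genes, since Nr5a1 and the chromaffin marker Chga were also at 0.20. In the lists of 6 cortical and 6 chromaffin markers, 4 of each were higher in replicate 2 and 2 of each were lower. The share of all genes with a ratio above 0 was not computed. Over all genes averaging 100 counts or more, the median ratio was 0.03 and the median absolute ratio 0.16.

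Genes that make progesterone were abundant, apart from Hsd3b6 at 17.1 and 19.5 TPM. All 6 of that list were above 1 TPM in both libraries, against 51.5% of nuclear protein-coding genes. By TMM 3 were higher and 3 lower in replicate 2, none 2-fold apart, with a median ratio of -0.10. Hsd3b1, which forms progesterone from pregnenolone, exceeded Akr1c18. Per length, Akr1c18 was at 0.494 times Hsd3b1 in replicate 1 and 0.466 times in replicate 2. It was at 1.17 and 1.08 times Cyp21a1, the 21-hydroxylase that takes progesterone toward corticosterone. In the second transcript table these last values were 0.965 and 0.998, so the order of Akr1c18 and Cyp21a1 differed between the tables.

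Of 6 other enzymes that use progesterone, Cyp21a1 included, 5 were above 1 TPM in both libraries, against 51.5% of nuclear protein-coding genes. Akr1d1, the 5-beta-reductase best known from bile acid synthesis in liver, was at 136.0 and 299.2 TPM. Its ratio was 0.36 (0.32 to 0.40), and all 13 liver markers were at -3.90 or lower. Which cells the Akr1d1 reads came from was not tested. Srd5a2, a 5-alpha-reductase, was at 24.5 and 50.8 TPM. Its relative Srd5a3 was lower, at 6.49 and 13.3 TPM. The exception was Cyp17a1, the 17-alpha-hydroxylase, at 0.39 TPM in both libraries, which is named after its values were seen. Akr1c18 exceeded Akr1d1 by 10.9 and 8.96 times.

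Among all 20 aldo-keto reductase genes listed, the Akr1c members held 66.5% of the summed TPM in replicate 1 and 73.8% in replicate 2. Akr1c18 alone held 55.3% and 56.6%. Of the other 11, 10 were above 1 TPM in both libraries, against 51.5% of nuclear protein-coding genes. None of the 11 was 2-fold apart, with a median ratio of 0.03. Akr1b7, an aldose reductase of the zona fasciculata, was at 436.8 and 419.7 TPM, and Akr1a1, the aldehyde reductase, at 171.7 and 305.3 TPM. Akr1cl was at 0.657 times Akr1b7 in replicate 1 and 1.92 times in replicate 2, so their order changed between the libraries. The ratio of Akr1b7 was -0.80 (-0.84 to -0.76) and that of Akr1cl was 0.77, the lowest and the highest among the 12 aldo-keto reductases averaging 100 counts or more.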

How the data were processed

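Total RNA libraries with added spike-in RNA were quantified against mm10 with GENCODE M21, per the submitters' processing notes. The program used is not given in the sources used here. Per gene and per transcript, the authors deposited expected counts (not whole) and TPM from a transcriptome alignment, the percent of each gene's abundance per transcript, and scores of precision (posterior SD of counts, bounds of TPM, the latter not used). Another deposited transcript table holds estimated counts and TPM derived directly from the reads, summed per gene here.

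Expected counts were scaled by TMM (edgeR 4.0.16). Ratios used a prior of 1 count, and intervals rounded counts. Genes were called over a mean count of at least 100, and 2-fold was the call. Code was tested on simulated data. No test between conditions was possible with 1 group. All members were described. From each list, the counts and at most 4 genes by mean TPM were named. Nr5a1, Fshr, Cyp19a1, Hsd3b6, Cyp17a1 and Pgr were named outside this rule. Cluster neighbours were named at 1 TPM or more. Members and lists were chosen with earlier results of these data known. Alternatives were DESeq2 1.42.0 size factors, totals of all, spike-in or coding counts, other thresholds, the other transcript table and each library alone. Sequences came from the M21 transcripts and the RefSeq promoter table (GRCm38.p6).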

Additional observations from a re-analysis of the deposited data

How the results depend on the processing

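Ratios between the libraries depended on the scaling. On total counts the median log2 ratio of all genes tested was 0.91 in place of 0.03, with 1.02 for Akr1c18, 1.66 for Akr1cl and 0.79 for Akr1c13, and 2 members were 2-fold apart, against 35.3% of all genes. Akr1c13 also changed sign on spike-in totals (0.041) and on coding totals (0.036), from -0.09, and Akr1c14 on total counts was at -0.43 with an interval that included equality. With a mean count of at least 10, 2 members were 2-fold apart, and with no minimum 4 were, against 5.40% and 18.6% of all genes. At 0.1 TPM, 5 members were detected in both libraries in place of 3. The added members, Akr1c14 and Akr1c19, had 6.13 to 19 counts. The share of all genes at that threshold was not computed. Rescaled to nuclear coding genes, Akr1c18 was at 7388 and Akr1cl at 1856 TPM. Each library alone gave 1477 to 2682 TPM for Akr1c18 and 287.1 to 805.8 for Akr1cl. Of the other values of single members, 56 kept their direction or moved by less than the spread and 15 moved by more, mostly TPM of members below 1 TPM. For levels and shares with each library alone this was fixed in advance, so these values are no check. Either library always lies within the SD of the mean of both. No paired analysis was possible because there is 1 group. Depth limits the members with under 30 counts.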

Other observations

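Transcripts of most genes listed as progesterone receptors were detected. Of 6 such genes, 5 were above 1 TPM in both libraries, against 51.5% of nuclear protein-coding genes. By TMM 3 were higher and 3 lower in replicate 2, with a median log2 ratio of 0.02. Whether progesterone is sensed through them was not tested. Pgrmc1, a membrane-associated progesterone-binding protein, led at 99.2 and 175.9 TPM. The membrane receptor Paqr7 was at 14.6 ± 8.78 TPM (SD, n = 2). Pgr, the nuclear receptor, was the exception at 0.04 and 0.05 TPM, from 3 and 8 counts, and is named after its values were seen.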
